A study of Homo sapiens with 12 samples.

Results

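AP-1 is a dimer of basic leucine zipper (bZIP) proteins of the FOS, JUN and ATF families. Several of its FOS and JUN subunit genes, together with EGR1 and IER2, belong to the immediate early genes. Transcription of immediate early genes is switched on within minutes of a growth or stress signal without new protein synthesis. JUN proteins can pair with each other or with a FOS protein, whereas FOS proteins need a partner, and the dimers bind the TPA response element (TRE) or the cyclic AMP response element (CRE) in DNA. In smooth muscle and mesenchymal tumour cells, AP-1 is known for its part in growth, matrix remodelling and wound-type responses. The genes described here were taken from a list of names, FOS, FOSB, FOSL1, FOSL2, JUN, JUNB, JUND, ATF3, EGR1 and IER2, which are 10 of the 22784 gene symbols with expression values, and all 10 passed the filter on low values. The list was given by name and its rule uses no measured value, but it was drawn up with earlier results of these data known.

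SK-UT-1, an established human cell line from a uterine leiomyosarcoma (uLMS), was treated for 48 h with vehicle (VEH, which was DMSO) or with 5 µM of either of a pair of bromodomain and extra-terminal (BET) protein inhibitors, JQ1 or I-BET 762, and its total RNA was sequenced. JQ1 and I-BET 762 both hold a triazole-fused diazepine that sits in the acetyl-lysine pocket of BET bromodomains, and they differ in the ring fused to it, a thiophene in JQ1 and a benzene in I-BET 762, and in their side chains. The labels describe 4 libraries per group, numbered 13 to 16 for VEH, 17 to 20 for JQ1 and 21 to 24 for I-BET 762, and values for 10 of the 12 libraries were analysed here: 3 VEH, 4 JQ1 and 3 I-BET 762 (VEH 16 and I-BET 762 24 are not analysed here). Nothing in the labels says that the libraries came from separate cultures, so the p-values below measure the spread between these libraries, which may be technical. The 10 libraries held 35564586 to 39658989 reads on genes. The reads behind single values of these genes ran from 51 (FOSB) to 11649 (FOSL2). HEXIM1, a gene whose transcript rises when BET proteins are inhibited, rose with both inhibitors (log2 fold change 1.53 ± 0.049 (SE) with JQ1 and 1.05 ± 0.053 with I-BET 762). The mesenchymal marker VIM stood at 110805 to 119350 normalized counts in VEH, 150131 to 161468 with JQ1 (log2 fold change 0.44 ± 0.059, limma adjusted p = 4.8e-06, under the fold threshold) and 123919 to 126882 with I-BET 762. The leukocyte markers in the table summed to at most 4.01 and the endothelial markers to at most 4.06 in any library. Of 8 smooth muscle markers in the table, MYOCD was at or under 3 reads in every library. The summed smooth muscle level was 20500 to 21136 normalized counts in VEH, 10662 to 11269 with JQ1 and 11822 to 12374 with I-BET 762. In bulk RNA such as this, fewer cells of a type and less RNA per cell cannot be told apart.

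A normalized count is the number of reads on a gene divided by a scaling factor of its library, and fold changes are given on the scale of log2(normalized count + 1). A gene was called changed when its limma adjusted p was under 0.05 and its fold change was over 1.5. With JQ1, 8 of the 10 genes were called higher and 0 lower than VEH, beside 13.3% of all 14839 tested genes called higher and 22.8% called lower. With I-BET 762, JUN and ATF3 were called higher and FOSB was called lower, beside 8.96% called higher and 17.9% called lower among all tested genes. At the same dose and time, 8 of the 10 were higher with JQ1 than with I-BET 762 and 0 were lower, where 1.73% of all tested genes were higher and 3.59% lower. FOSL2 was called in no comparison. The median log2 fold change of the 10 genes was 1.01 with JQ1 and 0.33 with I-BET 762, where the median over all tested genes was 0.0076 and -0.00063. The JQ1 and I-BET 762 comparisons share the VEH libraries.

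The genes were also counted by wider rules. By the adjusted p alone, 8 of the genes were higher and 0 lower with JQ1 (36% and 35.6% of all tested genes), 6 higher and 2 lower with I-BET 762 (29.9% and 31.3%), and 9 higher and 0 lower with JQ1 than with I-BET 762 (13.3% and 14%). The libraries did not overlap and lay above VEH in 8 genes and below in 0 with JQ1 (34.1% and 34.3% of all tested genes), and above in 6 and below in 2 with I-BET 762 (34.8% and 36.2%). In 9 genes all JQ1 libraries lay above all I-BET 762 libraries and in 0 below (17.5% and 16.3%).

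**Figure D1:**
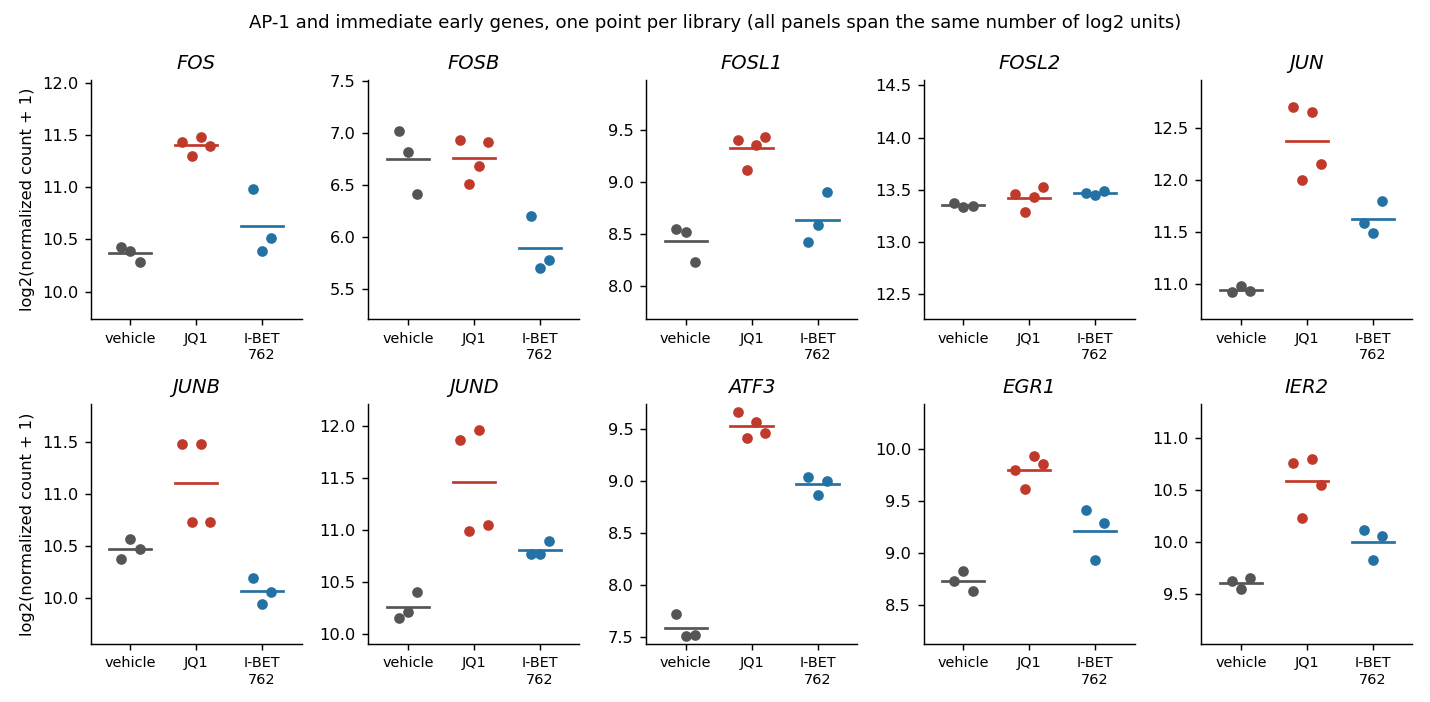
Each panel plots log2(normalized count + 1) of 1 gene on the vertical axis for the 3 VEH (vehicle), 4 JQ1 and 3 I-BET 762 libraries, 1 point per library, with a line at the group mean. All panels span the same number of log2 units, so heights can be compared: ATF3 moved most, FOSL2 hardly at all, and in JUN, JUNB and JUND the 4 JQ1 points fell into an upper and a lower pair.

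Promoter sequence was set beside these values because the promoters of immediate early genes carry short elements that are read by signal-activated factors. RefSeq upstream sequence (GRCh38.p14) was matched by symbol for 9 of the 10 genes, all except FOSL1, and the 250 bases before each start were searched on both strands. FOS and FOSB are shown because their elements are laid out alike while their levels moved differently. JUN and JUND are shown because JUND was the gene nearest to JUN in its values over the libraries. EGR1 is shown because, among the 9 windows searched, its window alone carried the CArG box, the element bound by serum response factor. The 200 bases from -210 to -11 of these 5 genes are given. They lie at chr14:75278618-75278817 (plus strand) for FOS, chr19:45467786-45467985 (plus strand) for FOSB, chr1:58784058-58784257 (minus strand) for JUN, chr19:18281633-18281832 (minus strand) for JUND and chr5:138465269-138465468 (plus strand) for EGR1, and each is written 5′ to 3′ in the direction of its gene. Capitals mark matches to the CRE (TGACGTCA), its core TGACG (also contained in the CRE), the CArG box and the TATA box (TATAAA).
FOS: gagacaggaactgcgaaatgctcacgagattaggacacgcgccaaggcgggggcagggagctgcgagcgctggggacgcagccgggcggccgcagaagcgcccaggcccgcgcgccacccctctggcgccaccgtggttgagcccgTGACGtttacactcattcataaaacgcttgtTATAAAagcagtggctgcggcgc
FOSB: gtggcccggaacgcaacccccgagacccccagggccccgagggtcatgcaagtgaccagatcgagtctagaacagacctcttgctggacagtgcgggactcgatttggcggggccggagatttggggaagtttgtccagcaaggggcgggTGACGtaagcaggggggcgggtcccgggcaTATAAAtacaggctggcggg
JUN: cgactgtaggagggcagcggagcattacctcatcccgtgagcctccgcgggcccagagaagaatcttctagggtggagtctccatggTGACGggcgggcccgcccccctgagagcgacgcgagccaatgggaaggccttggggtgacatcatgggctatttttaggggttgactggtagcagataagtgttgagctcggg
JUND: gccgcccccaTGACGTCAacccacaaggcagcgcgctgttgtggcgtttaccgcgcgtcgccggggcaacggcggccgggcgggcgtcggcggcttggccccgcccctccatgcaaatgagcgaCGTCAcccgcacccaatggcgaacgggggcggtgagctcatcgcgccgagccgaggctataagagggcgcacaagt
EGR1: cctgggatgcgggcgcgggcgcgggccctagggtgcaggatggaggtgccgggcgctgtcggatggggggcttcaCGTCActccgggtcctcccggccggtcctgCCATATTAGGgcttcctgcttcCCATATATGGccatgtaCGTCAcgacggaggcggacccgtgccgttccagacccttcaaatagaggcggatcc

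The CRE core TGACG was found in 8 of the 9 windows, all except that of ATF3, against 21.7% of 27305 promoters of the same length. A single start per gene was searched. The ATF3 window (chr1:212565157-212565406) lay at the 5′ end of a gene with 10 transcripts, and starts further into that gene were not searched. FOS carried TGACG at -64 to -60, followed by a TATA box at -33 to -28. FOSB carried it at -60 to -56, followed by a TATA box at -30 to -25. JUNB was the other gene with a TATA box, which 11.1% of promoters hold. Among the 9 windows, that of JUND alone held the full CRE (-200 to -193), which 1.77% of promoters hold. The EGR1 window alone held CArG boxes, at -105 to -96 and -83 to -74, against 1.14% of promoters. Whether the other genes carry CArG boxes outside their windows was not searched. The TRE (TGANTCA) was matched in 0 of the 9 windows and in 6.6% of all promoters. Exact letters alone were counted, so variants such as TGACATCA, which stands in the JUN and ATF3 windows, were left out. The matches counted here describe letters in these windows and were not tests of binding.

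The FOS family did not move as a block. FOS and FOSL1 rose with JQ1, FOSB fell with I-BET 762, and FOSL2 was called with neither. FOS (ENSG00000170345, chr14:75278826-75282230, plus strand, 4 exons) encodes the founding subunit of the family. It was counted at 1379, 1341 and 1241 normalized counts in the VEH libraries 13 to 15, at 2777, 2526, 2870 and 2693 in the JQ1 libraries 17 to 20, and at 2024, 1337 and 1465 in the I-BET 762 libraries 21 to 23. All JQ1 libraries lay above all others, whereas I-BET 762 library 22 lay below 2 of the VEH libraries. FOS rose 2.06-fold with JQ1 (log2 fold change 1.04 ± 0.10 (SE), limma adjusted p = 1.66e-07). With I-BET 762 the log2 fold change was 0.26 ± 0.11 (limma adjusted p = 0.0483), under the fold threshold. FOS was 1.71-fold higher with JQ1 than with I-BET 762 (log2 0.78 ± 0.10, limma adjusted p = 5.87e-05).

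FOSL1 (ENSG00000175592, chr11:65892049-65900573, minus strand, 4 exons) encodes FRA-1, a subunit known from invasive tumour cells. Its normalized counts were 373, 364 and 298 in VEH, 676, 552, 650.3 and 689 in JQ1, and 342, 382 and 475 in I-BET 762. The JQ1 libraries lay above all others, and the VEH and I-BET 762 libraries overlapped. FOSL1 rose 1.86-fold with JQ1 (log2 fold change 0.89 ± 0.11, limma adjusted p = 3.42e-06). With I-BET 762 the log2 difference was 0.21 (95% interval -0.055 to 0.47, limma adjusted p = 0.159). The difference between the inhibitors was 0.69 ± 0.11 on the log2 scale (limma adjusted p = 0.00045), and without I-BET 762 replicate 21 it was 0.58, just under the 1.5-fold threshold.

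FOSB (ENSG00000125740, chr19:45467995-45475179, plus strand, 4 exons) encodes a subunit whose truncated form, ΔFOSB, is known to build up under repeated stimulation. It had the fewest reads of the 10 genes, with normalized counts of 129, 112 and 84.6 in VEH, 121, 90.3, 102 and 119.7 in JQ1, and 72.8, 51.1 and 54.1 in I-BET 762. VEH and JQ1 overlapped, and the I-BET 762 libraries lay below every other library. FOSB fell 1.81-fold with I-BET 762 (log2 fold change -0.85 ± 0.19, limma adjusted p = 0.001). With JQ1 the log2 difference was 0.0081, with a 95% interval from -0.37 to 0.38, and its sign depended on the scaling: after equalizing library totals it was -0.18. FOSB was 1.82-fold higher with JQ1 than with I-BET 762 (log2 0.86 ± 0.18, limma adjusted p = 0.00214).

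FOSL2 (ENSG00000075426, chr2:28392448-28417317, plus strand, 4 exons) encodes FRA-2. It had the most reads of the 10 genes, with normalized counts of 10620, 10342 and 10384 in VEH, 11227, 9987, 11023 and 11767 in JQ1, and 11326, 11178 and 11467 in I-BET 762. The I-BET 762 libraries all lay above the VEH libraries, by a log2 difference of 0.12 (95% interval -0.00089 to 0.23, limma adjusted p = 0.0791), and the JQ1 libraries overlapped both groups. The log2 difference with JQ1 was 0.072 (interval -0.037 to 0.18, limma adjusted p = 0.222), or -0.11 after equalizing library totals, and between the inhibitors it was -0.044 (interval -0.15 to 0.065, limma adjusted p = 0.565). These intervals leave out a change of 1.5-fold in either direction.

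All 3 JUN family genes rose with JQ1, and among them JUN alone was called with I-BET 762. The canonical transcript of each has a single exon. JUN (ENSG00000177606, chr1:58776845-58784048, minus strand) encodes the family's strongest transcriptional activator. Its normalized counts were 1942, 2029 and 1956 in VEH, 6676, 4100, 6454 and 4569 in JQ1, and 3091, 2873 and 3567 in I-BET 762. No 2 groups overlapped, and within JQ1 the libraries 17 and 19 stood above 18 and 20. JUN rose 2.70-fold with JQ1 (log2 fold change 1.43 ± 0.13, limma adjusted p = 8.34e-08) and 1.60-fold with I-BET 762 (0.68 ± 0.14, limma adjusted p = 0.000643). Equalizing library totals brought the I-BET 762 value to 0.58, just under the threshold. JUN was 1.68-fold higher with JQ1 than with I-BET 762 (log2 0.75 ± 0.13, limma adjusted p = 0.000728).

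JUNB (ENSG00000171223, chr19:12791486-12793315, plus strand) encodes a subunit that can restrain JUN activity and promote differentiation. Of its exon bases, 259 are shared with HOOK2 on the other strand, and the strand setting of the counting is not given in the sources used here. The normalized counts were 1323, 1518 and 1415 in VEH, 2843, 1695, 2851 and 1701 in JQ1, and 1166, 985 and 1067 in I-BET 762. The JQ1 libraries all lay above VEH, 17 and 19 far above 18 and 20, and the I-BET 762 libraries all lay below VEH. JUNB rose 1.55-fold with JQ1 (log2 fold change 0.63 ± 0.16, limma adjusted p = 0.00192). That call was close to the threshold: the value was 0.58 without VEH replicate 13, 0.51 without JQ1 replicate 17, 0.51 without JQ1 replicate 19 and 0.26 without both of these JQ1 libraries, all under 1.5-fold. With I-BET 762 the log2 fold change was -0.40 ± 0.17 (limma adjusted p = 0.0481), not called. The difference between the inhibitors was the widest among the 10 genes, 2.05-fold (log2 1.04 ± 0.16, limma adjusted p = 0.000209). Without JQ1 libraries 17 and 19 it was 0.67, the lowest of its alternatives. FOSB was at least 0.77 in every alternative in which it was fitted, so JUNB was not the widest there.

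JUND (ENSG00000130522, chr19:18279694-18281622, minus strand) encodes the JUN protein that is made most steadily in resting cells. Its normalized counts were 1145, 1190 and 1359 in VEH, 3739, 2031, 3981 and 2122 in JQ1, and 1744, 1741 and 1904 in I-BET 762. No 2 groups overlapped, and JQ1 libraries 17 and 19 again lay far above 18 and 20. JUND rose 2.30-fold with JQ1 (log2 fold change 1.20 ± 0.18, limma adjusted p = 2.26e-05). With I-BET 762 the value was 0.55 ± 0.20 (limma adjusted p = 0.0243), not called, and 0.62 and called without VEH replicate 15. JUND was 1.58-fold higher with JQ1 than with I-BET 762 (log2 0.66 ± 0.18, limma adjusted p = 0.015). This difference was under the fold threshold without JQ1 replicate 17 (0.52) or 19 (0.49) and was 0.21 without both, and it was 0.57 after equalizing library totals and 0.56 after GC centring. Without I-BET 762 replicate 21 or 22 its limma adjusted p was 0.0604 or 0.0544, within a range of 3.08e-10 to 0.0854 over all alternatives.

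ATF3 (ENSG00000162772, chr1:212565334-212620777, plus strand, 4 exons) encodes a stress-induced bZIP factor that pairs with JUN proteins and often represses. It changed most of the 10 genes with both inhibitors. It was counted at 209, 181 and 183 normalized counts in the VEH libraries 13 to 15, at 808, 679, 753 and 701 in the JQ1 libraries 17 to 20, and at 522, 465 and 511 in the I-BET 762 libraries 21 to 23. No 2 groups overlapped and the libraries of each group lay close together. ATF3 rose 3.83-fold with JQ1 (log2 fold change 1.94 ± 0.085, limma adjusted p = 1.21e-11) and 2.61-fold with I-BET 762 (1.38 ± 0.091, limma adjusted p = 3.56e-09). Of all tested genes, 98.8% and 98.2% had a lower log2 fold change. It was 1.47-fold higher with JQ1 than with I-BET 762 (log2 0.56 ± 0.085, limma adjusted p = 0.000226), just under the threshold, and was called without JQ1 replicate 18 (0.59) or without I-BET 762 replicate 21 (0.59).

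EGR1 and IER2 belong to no AP-1 family, and both rose with JQ1 in amounts close to that of FOS. EGR1 (ENSG00000120738, chr5:138465479-138469303, plus strand, 2 exons) encodes a zinc finger factor induced by serum and growth factors. Its normalized counts were 425, 454 and 396 in VEH, 889, 782, 973 and 927 in JQ1, and 679, 488 and 623 in I-BET 762, and no 2 groups overlapped. EGR1 rose 2.09-fold with JQ1 (log2 fold change 1.07 ± 0.10, limma adjusted p = 1.35e-07). With I-BET 762 it was 1.39-fold higher (0.48 ± 0.11, limma adjusted p = 0.00145), not called, but called at 0.62 without I-BET 762 replicate 22. The difference between the inhibitors, 0.59 ± 0.10 on the log2 scale (limma adjusted p = 0.000674), was just over 1.5-fold and was under it without JQ1 replicate 19 (0.55), JQ1 replicate 20 (0.57) or I-BET 762 replicate 22 (0.45), and after equalizing library totals (0.50) or upper quartiles (0.56).

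IER2 (ENSG00000160888, chr19:13150411-13154911, plus strand, 2 exons) encodes a small nuclear protein of the immediate early response. Its exons share 1608 bases with genes on the other strand that have no values here. The normalized counts were 790.3, 748 and 807 in VEH, 1733, 1204, 1783 and 1500 in JQ1, and 1109, 905 and 1069 in I-BET 762, and no 2 groups overlapped. IER2 rose 1.97-fold with JQ1 (log2 fold change 0.98 ± 0.11, limma adjusted p = 7.6e-07) and was 1.31-fold higher with I-BET 762 (0.39 ± 0.12, limma adjusted p = 0.00901), not called. Between the inhibitors the log2 difference was 0.59 ± 0.11 (limma adjusted p = 0.00112), just over 1.5-fold, and it was under the threshold without JQ1 replicate 17 (0.53), JQ1 replicate 19 (0.51) or I-BET 762 replicate 22 (0.50). It was also under the threshold after equalizing library totals (0.50) or upper quartiles (0.56), with a pseudocount of 5 (0.58) and after GC centring (0.57).

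**Figure D2:**
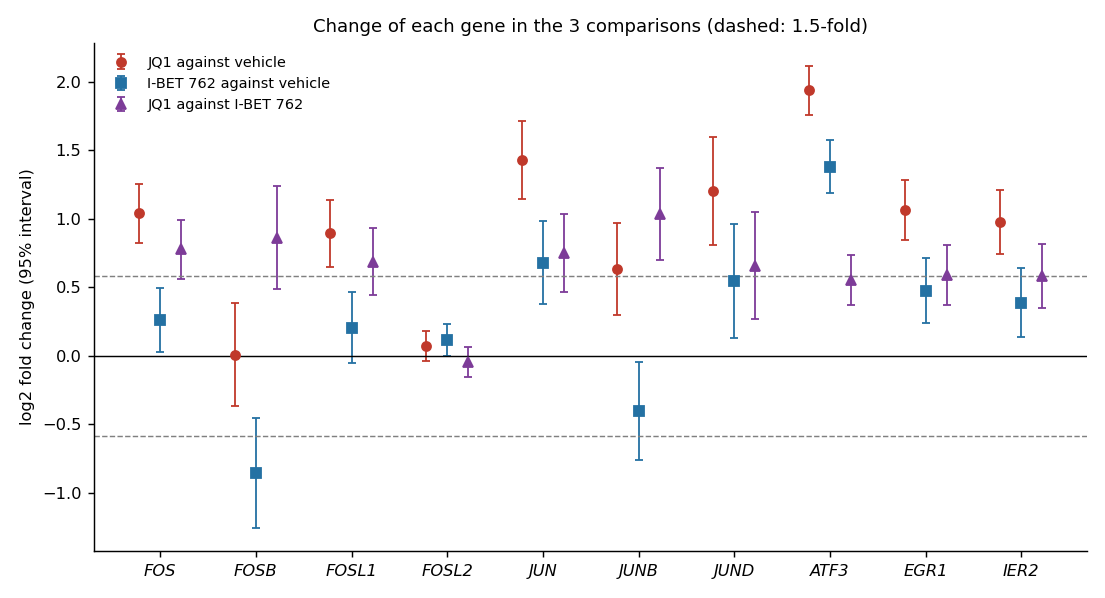
The vertical axis is the log2 fold change of each gene with its 95% interval for JQ1 against VEH (circles), I-BET 762 against VEH (squares) and JQ1 against I-BET 762 (triangles), and dashed lines mark 1.5-fold. Every JQ1 circle lay above the I-BET 762 square of the same gene except in FOSL2, and FOSB and JUNB were the genes whose I-BET 762 value lay below 0.

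Per kilobase of merged exons, the scale on which different genes can be compared, the VEH order was FOSL2 (1459 ± 20.9 normalized counts per kb, SD, n = 3), JUNB (775 ± 53.3), JUND (638 ± 58.5), JUN (545 ± 13.0), FOS (415 ± 22.4), IER2 (254 ± 9.92), FOSL1 (183 ± 21.6), EGR1 (135 ± 9.26), ATF3 (47.8 ± 3.92) and FOSB (19.5 ± 4.01). No neighbours in that order overlapped between libraries. With the longest transcript as the length, FOS (628 ± 33.9), JUN (607 ± 14.4) and JUND (638 ± 58.5) overlapped. With JQ1, JUND (1539 ± 537, n = 4), FOSL2 (1536 ± 104), JUN (1504 ± 360) and JUNB (1242 ± 362) overlapped at the top. With I-BET 762, FOSL2 (1581 ± 20.2, n = 3) stood apart above JUND (931 ± 48.3) and JUN (877 ± 97.8), which overlapped each other, and JUNB (586 ± 49.7) overlapped FOS (505 ± 115).

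Summed per kilobase, FOS family transcripts were 2076 ± 61.9 in VEH, 2748 ± 171 with JQ1 and 2309 ± 110 with I-BET 762, and JUN family transcripts were 1959 ± 92.3, 4284 ± 1254 and 2394 ± 160. FOSL2 made up 70.3% ± 1.49 of the FOS family total in VEH, 55.9% ± 0.938 with JQ1 and 68.6% ± 2.82 with I-BET 762. The share of FOS was 20.0% ± 0.522, 31.1% ± 1.22 and 21.8% ± 3.98, so the JQ1 libraries held more FOS beside a FOSL2 level that was not called changed. FOSB was at most 1.09% of its family in any library. In the JUN family, JUNB had the largest share in VEH (39.6% ± 1.58) and the smallest with JQ1 (29.0% ± 0.635) and I-BET 762 (24.5% ± 1.93). The share of JUN was 27.9% ± 1.09 in VEH, 35.5% ± 2.31 with JQ1 and 36.6% ± 1.72 with I-BET 762, and that of JUND was 32.6% ± 2.13, 35.5% ± 2.23 and 38.9% ± 1.35. These shares were described and not tested, and they depend on the length used: with the longest transcript FOSL2 made up 64.5%, 49.1% and 62.6%.

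**Figure D3:**
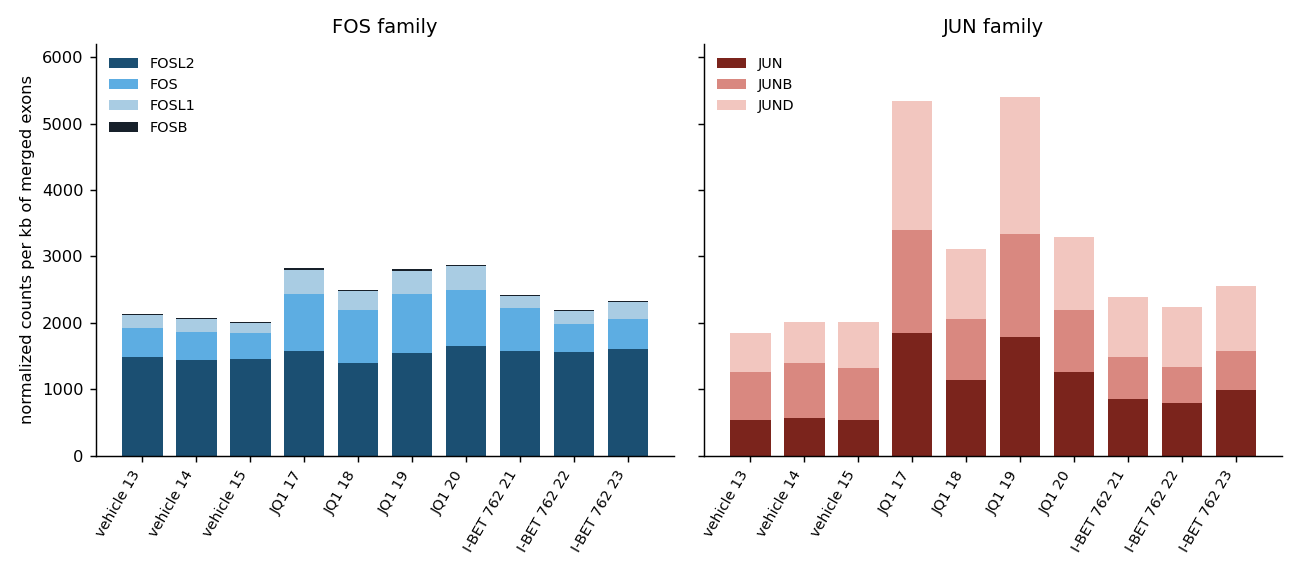
Stacked bars give normalized counts per kilobase of merged exons for the FOS family (left) and the JUN family (right) in each of the 10 libraries, with 1 colour per gene and the axis starting at 0. The FOS family is mostly FOSL2 in every library, and the JUN family total is highest in JQ1 libraries 17 and 19.

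The JQ1 libraries differed among themselves. In 6 of the 10 genes (FOS, JUN, JUNB, JUND, ATF3 and IER2) libraries 17 and 19 both lay above 18 and 20. That order was seen in 16.7% of all tested genes. The reverse order was seen in 0 of the 10 genes and in 20.6% of all tested genes. This split of the libraries was picked after these values were seen, so the counts are a description. Over all tested genes, libraries 18 and 20 were not alike. The mean chi-square per gene between their reads was 20.37, against 5.16 for 17 and 19. Library 18 stood at 20.82 from 17 and 19.46 from 19, and library 20 at 14.54 and 12.01. The SD over the 4 JQ1 libraries on the log2 scale was 0.52 for JUND, 0.43 for JUNB and 0.35 for JUN, larger than in 92.2%, 89.1% and 85.0% of tested genes, and it was 0.078 for FOS. GC content moved with the order of 17 and 19 above 18 and 20. Of the 2899 tested genes richest in GC, 37.9% showed it, and 6.72% of the 2900 poorest in GC. In the GC-richest of 20 classes, the median log2 difference from each gene's mean was -0.25 in library 18 and -0.053 in library 20. It was 0.17 in both 17 and 19. In the GC-poorest class it was 0.16 in library 18 and -0.056 in library 20, with 17 and 19 at -0.0019 and 0.013. JUND (69.9% GC), JUNB (64.9%) and IER2 (61.7%) ranked above 99.6%, 96.3% and 90.4% of tested genes in GC content, and ATF3, at 46.7%, above 44.8%. FOSL1 (58.7%), FOSB (57.6%), EGR1 (55.3%) and FOSL2 (53.3%) did not show the order, whereas JUN (56.1%) and FOS (52.8%) did. The mean of 17 and 19 minus that of 18 and 20 was 0.60 log2 units in JUN and 0.39 in IER2. Values were also centred within GC classes, an alternative chosen after the data were seen. Then 8 of the 10 genes were called with JQ1, 4 with I-BET 762 and 6 between the inhibitors. Of the 14496 genes so tested, 5223, 3904 and 809 were called. Without JQ1 libraries 17 and 19, also chosen afterwards, 7 of the 10 genes were called higher with JQ1 than with VEH. Higher with JQ1 than with I-BET 762 were 4 of the 10. Of all 14839 tested genes, 1927 and 172 were called higher in these comparisons.

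**Figure D4:**
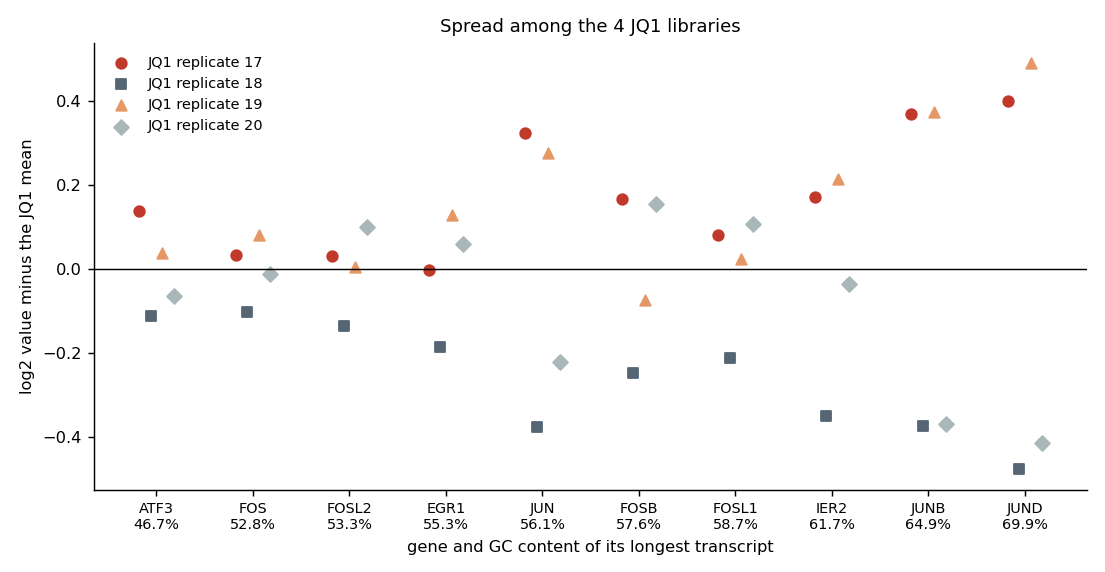
The vertical axis is the log2 value of each JQ1 library minus the mean of the 4 JQ1 libraries, and the genes are ordered from left to right by the GC content of their longest transcript. Replicates 17 and 19 lie furthest above 18 and 20 in JUND and JUNB, at 69.9% and 64.9% GC.

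The genes whose log2 profile over the 10 libraries was most alike were found by the root mean square (RMS) difference of values centred on each gene's mean, as a description. FOS was nearest to EGR1 (RMS 0.13 log2 units), followed by RPS2P55 and TRIB1, and EGR1 was nearest to MYC (0.111), followed by IER2 and SMIM29. IER2 was nearest to SAFB2 (0.112), RBM38 and EGR1. JUN was nearest to JUND (0.156), then COPB2-DT and MIDN, whereas JUND was nearest to ID1 (0.122), ANTKMT and EVA1B. JUNB was nearest to IER5L (0.175), itself an immediate early response gene, then SCAND1 and SOX8. These neighbours of JUNB were rich in GC (65.0%, 63.2% and 63.8%), as were ANTKMT (72.7%) and EVA1B (66.0%) beside JUND. The measure takes in the spread among the JQ1 libraries, which was wide in IER5L (mean 3533, SD 1457 normalized counts). How far that spread made these genes alike was not tested. FOSL1 was nearest to GATA2 (0.0875), ERRFI1 and NMB, and ATF3 to MT2A (0.0927), a metallothionein, BCYRN1 and PDLIM5. FOSB was nearest to DUSP2 (0.174), a MAP kinase phosphatase, PPP1R14B-AS1 and CRABP2, and FOSL2 to TMEM131L (0.028), SLC9A7 and CANT1. The nearest other gene of the 10 was further away for ATF3 (JUN, 0.325), JUNB (IER2, 0.344), FOSB (JUNB, 0.39) and FOSL2 (FOSL1, 0.404).

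Of 29 other immediate early genes listed, 28 were tested, and 17 (60.7%) rose and 0 fell with JQ1, with a median log2 fold change of 0.91, where 13.3% of all tested genes rose and 22.8% fell. With I-BET 762, 11 (39.3%) rose, 1 fell and 16 were not called, with a median of 0.52, where 8.96% of all tested genes rose and 17.9% fell, and the 11 had also risen with JQ1. The fall was SGK1 (log2 fold change -0.60), named after its value was seen. The 3 with the largest rises, ranked by the smaller of their values with the inhibitors, were SIK1, a salt-inducible kinase (2.45 with JQ1 and 2.52 with I-BET 762, from a VEH mean of 4.43 normalized counts), IER3, a survival regulator (3.01 and 1.72), and ARC, known from synaptic activity (2.93 and 1.52). Between the inhibitors, 9 of the 28 were higher with JQ1 and 0 lower, where 1.73% of all tested genes were higher and 3.59% lower.

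Of 12 listed genes for bZIP partners of AP-1, 10 were tested, and 2 rose and 3 fell with JQ1 (20% and 30%, where 13.3% and 22.8% of all tested genes did) and 1 rose and 3 fell with I-BET 762 (10% and 30%, where 8.96% and 17.9% did). Shares over so few genes were close to the background. The falls were BATF3 (log2 fold change -2.22 with JQ1 and -1.76 with I-BET 762), BATF2 (-1.12 and -1.15) and JDP2 (-0.89 and -0.73), which encode JUN partners that lack a strong activation domain. MAFF rose with JQ1 (1.13) and was higher with JQ1 than with I-BET 762 (0.68). MAFF was named after its value was seen.

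Of 21 genes for kinases and factors that act on these promoters or proteins, 2 rose and 3 fell with JQ1, where 13.3% of all tested genes rose and 22.8% fell. With I-BET 762, 1 rose and 2 fell, where 8.96% rose and 17.9% fell, so both sets of counts were within a few genes of the background. MAPK3, which encodes ERK1, fell with both (log2 fold change -2.12 with JQ1 and -1.59 with I-BET 762), as did MAPK10, which encodes JNK3 (-1.61 and -1.21), while RPS6KA2, which encodes an RSK kinase, rose (0.94 and 1.20). The other calls were with JQ1, a rise of MAP2K4 (0.74) and a fall of the SRF cofactor gene MRTFB (-0.75), both named after their values were seen. Among 6 genes for corepressors and for JUN or FOS turnover, NAB2, a corepressor of EGR1 (0.60), and FBXW7, a ubiquitin ligase subunit (0.60), rose with JQ1, and 0 were called with I-BET 762. Both rises were just over 1.5-fold. With I-BET 762 NAB2 was at 0.31 (limma adjusted p = 8.37e-05) and FBXW7 at 0.50 (limma adjusted p = 4.45e-07), under the fold threshold. DET1 was lower with JQ1 than with I-BET 762 (-0.99, at low means of 9.23 and 19.3 normalized counts). These 3 were named after their values were seen.

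Of 20 genes commonly cited as AP-1 targets, 14 were tested, and 6 (42.9%) rose and 3 fell with JQ1 (median log2 fold change 0.52), where 13.3% of all tested genes rose and 22.8% fell. MMP1, MMP3, MMP10, MMP13, IL6 and SPP1 were too low to be tested, with group means of at most 5.27 normalized counts. The shares given here leave them out. With I-BET 762, 3 rose and 3 fell (median 0.020), where 8.96% rose and 17.9% fell. The number of falls was near the background in both. HBEGF, an EGF receptor ligand (1.82 with JQ1 and 1.40 with I-BET 762), PLAU, the urokinase gene (1.39 and 1.03), and HMGA1, a chromatin protein gene (1.75 and 0.92), rose with both. The cytokine genes IL11 (-2.33 and -3.24), LIF (-1.52 and -1.51) and CXCL8 (-0.90 and -1.63) fell with both. IL11 had few reads: its mean normalized count was 31.7 in VEH, 6.12 with JQ1 and 2.99 with I-BET 762, the last near the floor of 3 reads. Between the inhibitors, 5 were higher with JQ1 and 0 lower, where 1.73% of all tested genes were higher and 3.59% lower. Smooth muscle and epithelial genes moved beside these changes: of 7 tested smooth muscle markers 6 fell with each inhibitor, with TAGLN at -3.67 and -3.34, DES at -4.63 and -3.16 and CNN1 at -3.58 and -2.70. Of 4 tested epithelial markers 4 fell with JQ1 and 3 with I-BET 762, among them KRT19 (-1.60 and -1.95), EPCAM (-1.20 and -0.83) and KRT8 (-0.69 and -0.72). Their part in the changes of the AP-1 genes was not tested.

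**Figure D5:**
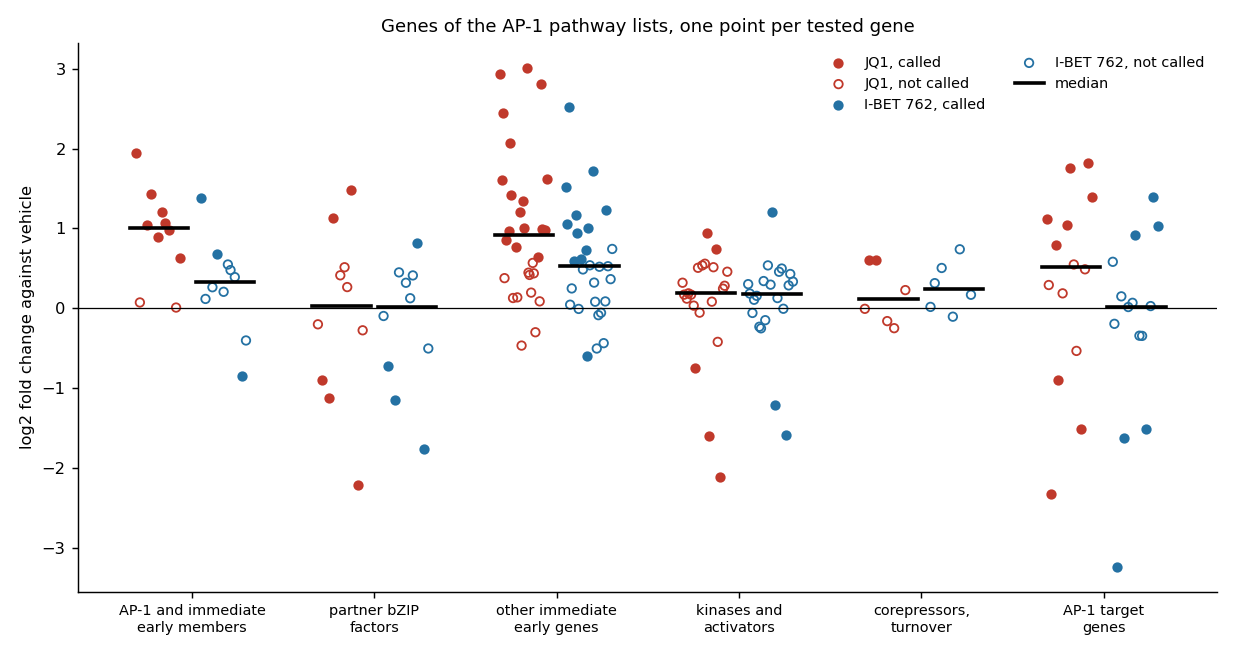
Each point is the log2 fold change of 1 tested gene against VEH with JQ1 (red) or I-BET 762 (blue), grouped by gene list, filled where called and open where not, with a bar at the median. The medians of the 10 AP-1 and immediate early genes (1.01 and 0.33) and of the other immediate early genes (0.91 and 0.52) lay above 0, and the partner bZIP genes were spread on both sides of 0.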

How the data were processed

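Total RNA of SK-UT-1 cells was sequenced from strand-specific libraries. The authors report FastQC 0.73, Trimmomatic, HISAT2 2.2.1 on hg38, featureCounts 2.0.3 with a Gencode annotation and DESeq2 normalization, with outlier samples left out. As deposited, each value is log2(normalized count + 1), given for 22784 symbols and running from 0 to 20.48. Undoing the log2 gave whole reads (within 0.05 read) for at least 99.741% of values in each library. A count of 0 allows up to 3 reads. These floors cover counting error only.

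Genes with a normalized count of at least 10 in at least 3 libraries (14839) were analysed by limma (version 3.58.1, R 4.3.3), in a model of the 3 groups over the 10 libraries with a trend of variance on intensity, and p-values were adjusted over all tested genes by Benjamini-Hochberg. No 2 libraries were identical. The fit was tested on simulated data. Tables were made with Python 3.11.15 and pandas 2.3.3. Gene positions, identifiers and exon lengths are from Gencode V44 on GRCh38, and GC content is that of the longest transcript. The genes, gene lists and tests were chosen with earlier results of these data known. From each list, up to 3 rises and 3 falls called the same way with both inhibitors are named, ranked by the smaller change, and for each of the 10 genes its 3 most alike genes. 1 gene that this rule selects is not reported here. Alternatives covered pseudocounts, filters, scaling, the variance model, the libraries fitted, thresholds, limma-voom on the recovered reads, leaving out each library, GC centring, gene length, and leaving out 2 JQ1 libraries at a time.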

Additional observations from a re-analysis of the deposited data

How the results depend on the processing

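No paired analysis was possible because the replicate numbers 13 to 24 are all different. The number of the 10 genes called with JQ1 against VEH was 8, and 5 at a fold change over 2. Of all 14839 tested genes, 5358 and 2958 were called at these thresholds. With I-BET 762 the number among the 10 genes was 3, and 8 (6 up, 2 down) without a fold threshold and 1 at a fold change over 2. Of all tested genes, 3991, 9073 and 2108 were called with I-BET 762, in that order of thresholds. Between the inhibitors 8 of the 10 genes were called, and 5 after equalizing library totals (JUND, EGR1 and IER2 lost). After equalizing upper quartiles 6 were called (EGR1 and IER2 lost), 1 at a fold change over 2 and 4 without JQ1 libraries 17 and 19. Of all tested genes, 788, 954, 798, 206 and 672 were called between the inhibitors, in that order of settings. When each library was left out, the counts among the 10 genes ran from 7 to 8, 3 to 4 and 5 to 9. The 5 was without JQ1 replicate 19 or without I-BET 762 replicate 22. The other alternatives, limma-voom on recovered reads among them, left each count within 1.5 times, and under the filter on a mean normalized count of at least 100 FOSB was not fitted. FOSB with JQ1 changed sign, at -0.18 with equal totals, -0.056 with equal upper quartiles and -0.039 without JQ1 libraries 17 and 19, and ran from -0.16 to 0.14 when each library was left out. FOSL2 changed sign with JQ1 at equal totals (-0.11), and between the inhibitors when each library was left out (-0.077 to 0.0015). JUNB with JQ1 was under the fold threshold at equal totals (0.45) and equal upper quartiles (0.57). Between the inhibitors JUND missed the adjusted p threshold without the intensity trend (limma adjusted p = 0.0854, the highest of its alternatives), and JUN was 0.45 without JQ1 libraries 17 and 19. JUND with I-BET 762 was called after GC centring (0.70). Equal totals moved the median of all tested genes by -0.18 with JQ1 and -0.10 with I-BET 762, and the share of called genes that were higher with JQ1 from 36.9% to 22.5%, which was 50.3% without a fold threshold. Why these values moved was not tested.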
